A study of Rattus norvegicus with 78 samples.

Results

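The 9 genes described here are the classical transcripts of the striatal projection neuron: the dopamine receptor genes Drd1 and Drd2, the adenosine receptor gene Adora2a, the peptide precursors Pdyn, Penk and Tac1, and the signalling genes Ppp1r1b, Rgs9 and Pde10a. They were found by symbol among 9627 named genes, which stand on an array of 26419 features, and each symbol had 1 feature, so no choice between features arose. Both brain regions, amygdala and hippocampus, came from male rats of the Selectively-bred Low Responder line, which was selected over generations for little movement in a new place. Dams of the exposed arm drank paroxetine, an antidepressant that blocks serotonin reuptake, at 10 mg/kg/day, and dams of the control arm drank water without it; drinking began 1 week before mating and ended at weaning on P21, where P stands for the postnatal day. Offspring were taken at P7, P14, P21 and P75, which gave 16 groups of region, age and arm; each holds 5 arrays, save the exposed P7 groups, which hold 4. The P75 rats had therefore been without the drug since weaning, and the P7 to P21 rats were taken during exposure through the dam. All groups share the selected line and the male sex, and the labels give no litter, so p-values measure the spread between arrays, and littermates may be among them. Values are the authors' normalized single-colour intensities, on a linear scale in arbitrary units; differences are on the log2 scale, with tests from limma and Benjamini-Hochberg adjustment over all 26419 features.

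Striatal projection neurons are GABA-releasing cells that receive cortical glutamate and midbrain dopamine. Those of the direct pathway carry the D1 receptor (Drd1) with dynorphin (from Pdyn) and substance P (from Tac1), and those of the indirect pathway carry the D2 receptor (Drd2), an adenosine receptor (Adora2a) and enkephalin (from Penk). Both kinds hold DARPP-32 (Ppp1r1b), which turns cAMP signals into inhibition of protein phosphatase 1, the GTPase activator Rgs9, which shortens G protein signals, and the cyclic nucleotide phosphodiesterase Pde10a. Neurons of the central amygdala and its intercalated cell masses share a developmental origin and many of these transcripts with the striatum, and the caudate-putamen borders the amygdala from above. High levels of these genes in a piece of amygdala can therefore come from amygdalar cells, from adjoining striatum or from both.

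Array facts that touch the results come first. The median intensity of an array lay between 213 and 260, and within a group the correlation between arrays was 0.926 to 0.985 over all features. The interquartile range of log2 values on an array differed between groups. In control hippocampus it was 3.159 to 3.253 at P7, 3.067 to 3.254 at P14, 2.733 to 2.757 at P21 and 2.705 to 2.751 at P75. In exposed hippocampus it was 2.784 to 2.799 at P7, and in the amygdala it lay between 2.968 and 3.437. Quantile normalization, which gives all arrays the same spread, is among the alternatives below. Arrays of the same region shared a median of 359 identical values and arrays of different regions 116, which points to a separate normalization of each region. Levels set across regions carry that limit. A random control probe, which matches no rat transcript, read 42.9 to 51.3 in the amygdala and 43.4 to 57.2 in the hippocampus and differed between groups. In the hippocampus it was 54.8 to 57.2 in controls of P21 and P75 and 46.8 to 49.4 in their exposed counterparts, while at P7 it was 43.4 to 44.3 in controls and 51.4 to 54.6 in exposed rats. Some groups were split over all features. On the first principal component replicates 1 to 3 of control hippocampus P14 stood apart from 4 and 5. On the second, replicates 1 and 2 of exposed amygdala P75 stood apart from 3 to 5, replicates 1 and 2 of exposed hippocampus P7 from 3 and 4, and replicates 4 and 5 of control amygdala P7 from the rest. In these whole tissue pieces, fewer cells of a type and less RNA per cell cannot be told apart. Tac1 was dim: it exceeded the median feature of its array on 8 of 39 amygdala and 2 of 39 hippocampus arrays, whereas Ppp1r1b, Penk, Adora2a and Pde10a did so on all 78.

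The promoters of 6 of the 9 genes were in the RefSeq table of rat promoters (build GRCr8), each as 250 bases before and 50 after the start of the gene. Those of Drd2, Pdyn and Rgs9 are printed because these 3 genes were among the 5 that were lower together in the amygdala of exposed adults, and those of Tac1 and Pde10a because these were not called there. They are written 5′ to 3′ in lower case. Capitals mark the core letters TGACG of the cAMP response element on either strand (CGTCA when it lies on the other strand), the full element TGACGTCA, which contains the core, and TATAAA on either strand.
Drd2 (chr8:58605153-58605452, plus strand): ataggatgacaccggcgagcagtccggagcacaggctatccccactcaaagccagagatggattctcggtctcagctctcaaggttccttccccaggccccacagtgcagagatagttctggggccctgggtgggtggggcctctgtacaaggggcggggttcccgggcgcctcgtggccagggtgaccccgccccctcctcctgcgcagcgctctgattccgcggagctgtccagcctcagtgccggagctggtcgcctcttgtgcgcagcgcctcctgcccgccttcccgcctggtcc
Pdyn (chr3:137366454-137366753, minus strand): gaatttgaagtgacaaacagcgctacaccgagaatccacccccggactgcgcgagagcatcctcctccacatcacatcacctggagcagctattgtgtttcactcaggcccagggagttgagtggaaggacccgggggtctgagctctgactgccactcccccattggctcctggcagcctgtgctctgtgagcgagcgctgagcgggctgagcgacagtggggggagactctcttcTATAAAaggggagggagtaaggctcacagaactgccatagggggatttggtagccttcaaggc
Rgs9 (chr10:94770338-94770637, minus strand): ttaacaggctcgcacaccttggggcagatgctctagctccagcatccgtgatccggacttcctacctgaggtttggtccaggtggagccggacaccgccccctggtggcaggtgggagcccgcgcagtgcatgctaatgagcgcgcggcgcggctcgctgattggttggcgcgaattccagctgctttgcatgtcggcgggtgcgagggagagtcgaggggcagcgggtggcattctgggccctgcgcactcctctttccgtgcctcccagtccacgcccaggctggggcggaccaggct
Tac1 (chr4:36645333-36645632, plus strand): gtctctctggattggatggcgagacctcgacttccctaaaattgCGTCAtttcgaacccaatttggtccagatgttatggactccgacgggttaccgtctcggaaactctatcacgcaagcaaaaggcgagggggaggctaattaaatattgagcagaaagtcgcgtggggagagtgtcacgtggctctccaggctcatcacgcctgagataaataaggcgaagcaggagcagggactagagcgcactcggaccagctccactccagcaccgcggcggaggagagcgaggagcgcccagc
Pde10a (chr1:54765619-54765918, minus strand): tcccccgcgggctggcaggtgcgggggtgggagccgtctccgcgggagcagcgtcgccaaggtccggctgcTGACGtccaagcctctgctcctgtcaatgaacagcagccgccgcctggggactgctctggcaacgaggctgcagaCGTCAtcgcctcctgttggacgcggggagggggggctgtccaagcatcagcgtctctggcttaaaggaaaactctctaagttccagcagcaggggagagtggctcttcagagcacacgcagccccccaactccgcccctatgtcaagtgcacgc
The core occurred once in the Tac1 window and on each strand of the Pde10a window, TATAAA once in the Pdyn window, and none of these letters in the Drd2 and Rgs9 windows. Among 33469 rat promoters of the same length, 21.2% held the core, 1.83% the full element and 14.2% TATAAA. The full element was in none of the 5 windows. A match describes letters and is not evidence of a bound factor, and the lack of a match says only that these letters are not in the window.

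**Figure D1:**
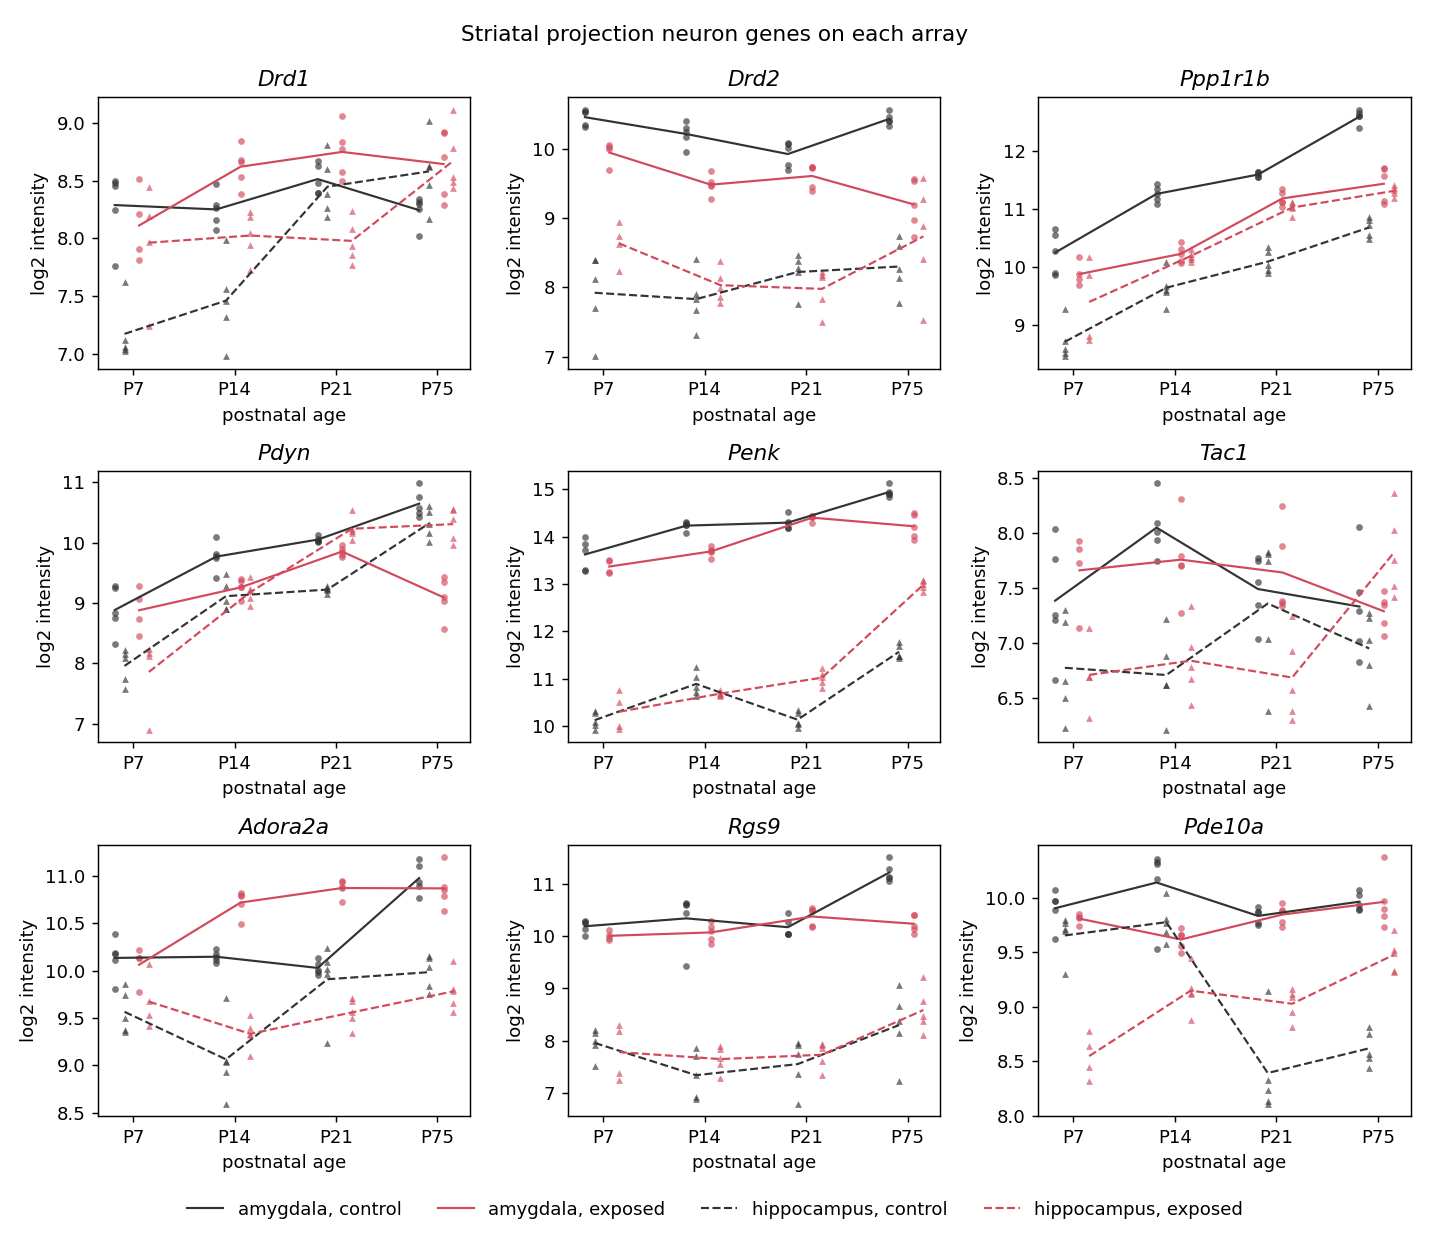
Log2 intensity of each gene on every array (vertical axis) at the 4 postnatal ages (horizontal axis), with circles and solid lines for amygdala, triangles and dashed lines for hippocampus, black for control and red for exposed rats; lines join group means. The amygdala points of Penk, from 9593 to 35810 in linear units, all lie above its hippocampus points, from 967 to 8666, and the red amygdala points of Pdyn, Drd2, Ppp1r1b and Rgs9 lie below the black ones at P75.

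In control rats most of the 9 genes were higher in the amygdala than in the hippocampus at every age, with the widest gaps for Penk, Rgs9, Drd2 and Ppp1r1b. At P7 7 of 9 were higher (17.4% of all features were) and 0 lower (14.9%). At P14 9 of 9 were higher (17.5% of features) and 0 lower (12.7%), at P21 6 (36.2%) and 0 (22%), and at P75 6 (36%) and 0 (20%). The median log2 difference of the 9 lay between 1.12 and 1.44 over the ages, beside 0.03 to 0.16 for all features.

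Among the indirect pathway genes, Penk read 29480, 30451, 30629, 31651 and 35810 in control amygdala at P75 and 3507, 3295, 2851, 2845 and 2774 in control hippocampus. No array of one region came near the other. The log2 difference was 3.37 (SE 0.12, adjusted p = 3.01e-34), and over the 4 ages it ranged from 3.34 at P14 to 4.16 at P21. Drd2 read 1414, 1354, 1290, 1353 and 1510 in amygdala and 429, 386, 281, 306 and 220 in hippocampus at P75, again without overlap. Its difference was 2.13 (SE 0.22, adjusted p = 3.83e-13) at P75 and 2.53 (SE 0.22, adjusted p = 1.6e-15) at P7. Adora2a differed less and less steadily, by 1.08 (SE 0.14, adjusted p = 3.93e-09) at P14 and 0.99 (SE 0.14, adjusted p = 1.02e-08) at P75, and at P21 the difference was 0.12 (SE 0.14, adjusted p = 0.482), with overlapping groups.

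None of the 3 direct pathway genes passed between the regions at P75. Drd1 read 358, 350, 361, 304 and 217 in amygdala and 133, 132, 196, 139 and 130 in hippocampus at P7. All amygdala arrays lay above all hippocampus arrays, and the difference was 1.12 (SE 0.17, adjusted p = 1.95e-07). By P75 Drd1 read 314, 318, 323, 259 and 306 in amygdala and 393, 519, 396, 353 and 288 in hippocampus, with overlap and a difference of -0.34 (SE 0.17, adjusted p = 0.0872). Between these ages the random control probe went from 43.4 to 44.3 at P7 to 55.3 to 57.2 at P75 in control hippocampus. In control amygdala it read 48.5 to 49.3 and 50.2 to 51.3. Its part in the change of the regional difference was not tested. Pdyn, which hippocampal granule cells also make, was higher in amygdala by 0.93 (SE 0.17, adjusted p = 1.55e-05) at P7, and at P75 the difference was 0.33 (SE 0.17, adjusted p = 0.102). Tac1 was higher in amygdala at P14, 257, 273, 350, 215 and 245 against 98, 148, 118, 98 and 74, a difference of 1.34 (SE 0.25, adjusted p = 1.44e-05). At the other ages its differences of 0.13 to 0.61 did not pass.

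The signalling genes Ppp1r1b and Rgs9 set the regions apart at every age. Rgs9 read 2105, 2238, 2199, 2913 and 2475 in amygdala and 151, 534, 285, 408 and 331 in hippocampus at P75. The lowest amygdala value was above the highest hippocampus value, and the log2 difference was 2.91 (SE 0.22, adjusted p = 2.77e-18). Ppp1r1b read 5398, 6210, 6243, 6477 and 6738 in amygdala and 1496, 1694, 1794, 1427 and 1860 in hippocampus, likewise without overlap, and differed by 1.91 (SE 0.16, adjusted p = 4.88e-16). Pde10a went a different way: the regions overlapped at P7, 0.25 (SE 0.13, adjusted p = 0.15), and at P75 they stood apart by 1.35 (SE 0.13, adjusted p = 1.31e-13). At P14 its difference of 0.36 (SE 0.13, adjusted p = 0.0303) was lost on leaving out any of 7 of the 10 arrays. In control hippocampus mean log2 Pde10a was 9.78 at P14 and 8.39 at P21. The random control probe read 43.4 to 46.2 and 54.8 to 55.5 in these groups, and its part was not tested. In exposed rats the gap was wider at P7 than at P75. With 1 array left out it was 1.19 to 1.34 at P7 and 0.38 to 0.55 at P75.

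**Figure D2:**
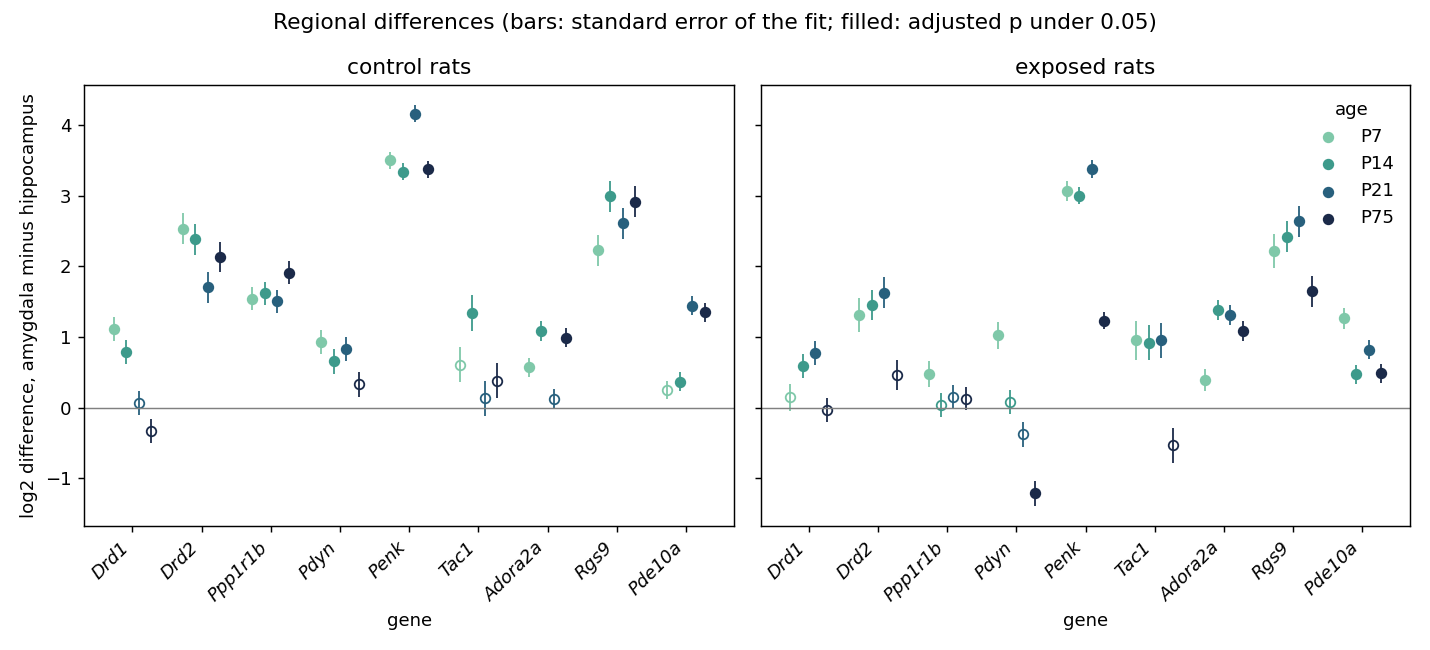
Log2 difference of amygdala minus hippocampus (vertical axis) for each gene (horizontal axis) at the 4 ages, in control rats on the left and exposed rats on the right; points are fitted differences, bars their standard errors, and filled points have an adjusted p under 0.05. Penk lies highest in controls, at 3.34 to 4.16, and at P75 the exposed panel shows Penk at 1.23 and Pdyn at -1.21.

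The tissue around the amygdala was read through lists of marker genes. Of 38 other projection neuron genes 20 were measured, and in controls at P75 14 of them were higher in amygdala and 0 lower (median log2 difference 0.90, beside 0.16 for all features). Of all features 36% were higher and 20% lower in that comparison. Rxrg, a retinoid receptor gene, read 1777 to 2136 in amygdala and 258 to 457 in hippocampus and differed by 2.48 (SE 0.15, adjusted p = 9.98e-23) and Six3, a transcription factor gene of developing striatum, by 2.43 (SE 0.18, adjusted p = 9.11e-19). Markers of the central and medial amygdala were higher as well, 9 of 10 measured, among them Cyp26b1, which degrades retinoic acid, by 3.52 (SE 0.22, adjusted p = 7.46e-22), Sst (somatostatin) by 1.47 (SE 0.10, adjusted p = 5.04e-20) and Cartpt (the CART peptide precursor) by 1.68 (SE 0.19, adjusted p = 1.97e-11), while Crh was lower, at -1.71 (SE 0.31, adjusted p = 2.51e-06). The striatal genes and the amygdalar ones were thus high in the same tissue pieces. Only 2 of 12 markers of basolateral and cortical glutamatergic neurons, 2 of 5 of the pallidum and basal forebrain and 3 of 4 of cholinergic neurons were measured, with summed control amygdala P75 intensities of 9466 to 10982, 581 to 988 and 282 to 405. None of the listed genes was at 0 on any array. The random control probe, which matches no rat transcript, itself read 42.9 to 51.3 in the amygdala. A value above 0 thus does not show that a marker was expressed. How much striatum a piece of amygdala held was not tested.

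With age, the step in control rats at which most of the genes rose was that from P21 to P75 in the amygdala, when 6 of 9 did (0.954% of all features rose) and 0 fell (2.9%). Rgs9 read 1052, 1057, 1049, 1392 and 1237 at P21 and 2105, 2238, 2199, 2913 and 2475 at P75, without overlap, a step of 1.04 (SE 0.15, adjusted p = 4.2e-05). Ppp1r1b read 3020, 3181, 3197, 2992 and 3102 and then 5398, 6210, 6243, 6477 and 6738, a step of 1.00 (SE 0.14, adjusted p = 1.4e-05). Adora2a read 1017, 1026, 1124, 990 and 1072 and then 1747, 1962, 2202, 2309 and 1908, a step of 0.95 (SE 0.11, adjusted p = 7.04e-07). In all of these every P75 array lay above every P21 array. Penk rose by 0.65 (SE 0.12, adjusted p = 0.00111), Pdyn by 0.60 (SE 0.16, adjusted p = 0.03) and Drd2 by 0.51 (SE 0.13, adjusted p = 0.0181). The calls of Pdyn and Drd2 were lost on leaving out single arrays, Pdyn without any P21 array or without P75 replicate 4 or 5, and Drd2 without P21 replicate 4 or 5. Drd1, Tac1 and Pde10a did not pass, with steps of -0.27, -0.16 and 0.13. Of the 20 other projection neuron genes 4 rose and 1 fell over the same step, with Gng7, a G protein subunit gene, up by 0.61 (SE 0.10, adjusted p = 0.000368) and Strn down, at -0.41 (SE 0.11, adjusted p = 0.0266). None of the 10 central and medial amygdala genes passed in either direction at this step. The random control probe read 44.9 to 46.0 at P21 and 50.2 to 51.3 at P75, and its part in these steps was not tested. The summed choroid plexus intensity was 2524 to 2997 at P21 and 6191 to 7355 at P75, with 1 of its 10 genes called higher and 0 lower, and the thalamic sum 5923 to 6965 and 3238 to 4114, with 0 of 4 higher and 1 lower. The part of such tissue in these steps was not tested.

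Fewer genes were called over the earlier steps in control amygdala. From P7 to P14 in control amygdala 3 genes rose (4.77% of features did) and 0 fell (2.38%): Ppp1r1b by 1.01 (SE 0.14, adjusted p = 4.88e-06), Pdyn by 0.88 (SE 0.16, adjusted p = 0.000505) and Penk by 0.61 (SE 0.12, adjusted p = 0.00118). Between P14 and P21 0 of 9 were called in limma (7.43% of features rose and 4.92% fell), with 4 genes, Drd2, Ppp1r1b, Tac1 and Pde10a, at an unadjusted p under 0.05 and 2 called by limma after quantile normalization. In control hippocampus 3 genes rose from P7 to P14 (10.6% of features) and 1 fell (11%): Pdyn by 1.16 (SE 0.18, adjusted p = 6.76e-06), Ppp1r1b by 0.93 (SE 0.19, adjusted p = 0.00021) and Penk by 0.77 (SE 0.13, adjusted p = 2.79e-05), with Adora2a lower, at -0.50 (SE 0.17, adjusted p = 0.0295), a call lost without any of 5 of the 10 arrays. From P14 to P21 4 rose (24.1%) and 2 fell (29.9%). Drd1 rose by 0.99 (SE 0.19, adjusted p = 3.69e-05) and Adora2a by 0.85 (SE 0.17, adjusted p = 6.66e-05). The rises of Tac1, 0.65 (SE 0.26, adjusted p = 0.0308), and Ppp1r1b, 0.45 (SE 0.19, adjusted p = 0.0402), were lost without any of 6 and any of 7 of the 10 arrays. Penk was lower at P21, at -0.76 (SE 0.13, adjusted p = 9.78e-06). Pde10a fell most, from 872, 765, 824, 894 and 1059 to 276, 282, 322, 567 and 301, a step of -1.39 (SE 0.15, adjusted p = 8.55e-10) with no overlap. Over that same step the random control probe read 43.4 to 46.2 at P14 and 54.8 to 55.5 at P21. From P21 to P75 Penk rose by 1.43 (SE 0.13, adjusted p = 4.62e-09) and Pdyn by 1.10 (SE 0.18, adjusted p = 0.000332), 2 of 9 where 0.882% of features rose, and 0 of 9 fell where 1.65% did.

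Exposure was followed in the adult amygdala by lower levels of 5 of the 9 genes at P75 (11.8% of all features were lower) and a higher level of 1 (9.35%). The 5 were Pdyn, Drd2, Ppp1r1b, Rgs9 and Penk, which span both pathways. Their fitted intensities were 2.94-fold, 2.35-fold, 2.23-fold, 1.97-fold and 1.65-fold lower in that order. The median log2 difference of the 9 was -0.72 beside -0.03 for all features.

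Of the receptors, Drd2 read 1414, 1354, 1290, 1353 and 1510 in controls and 581, 425, 739, 505 and 760 in exposed adults. Every exposed array lay below every control array, and the difference was -1.23 (SE 0.13, adjusted p = 8.94e-09). Adora2a, which marks the same indirect pathway cells, read 1747, 1962, 2202, 2309 and 1908 in controls and 2353, 1882, 1578, 1766 and 1849 in exposed rats. The groups overlapped, with a difference of -0.11 (SE 0.11, adjusted p = 0.536). Drd1 read 314, 318, 323, 259 and 306 in controls and 333, 313, 486, 418 and 482 in exposed rats, overlapping at exposed replicate 2. Its difference of 0.40 (SE 0.15, adjusted p = 0.0496) was lost without any of 8 of the 10 arrays, and with exposed replicates 1 and 2 alone it was 0.09.

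Of the peptide precursors, Pdyn had the largest fall of the 9. It read 1446, 1528, 1372, 1731 and 2028 in controls and 523, 380, 690, 652 and 546 in exposed rats, so the highest exposed value was below the lowest control value, and the difference was -1.55 (SE 0.16, adjusted p = 9.59e-09). Penk read 29480, 30451, 30629, 31651 and 35810 in controls and 16478, 15645, 22422, 18988 and 23069 in exposed rats, also without overlap, a difference of -0.72 (SE 0.12, adjusted p = 2.91e-05). Tac1 read 129, 176, 114, 266 and 156 in controls and 145, 166, 133, 163 and 177 in exposed rats, with overlap and a difference of -0.04 (SE 0.23, adjusted p = 0.928).

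The signalling genes divided. Ppp1r1b read 5398, 6210, 6243, 6477 and 6738 in controls and 2259, 2175, 3346, 3037 and 3295 in exposed adults, a difference of -1.16 (SE 0.14, adjusted p = 9.09e-08), and Rgs9 read 2105, 2238, 2199, 2913 and 2475 in controls and 1344, 1057, 1120, 1175 and 1350 in exposed rats, a difference of -0.98 (SE 0.15, adjusted p = 1.09e-05). Neither gene's groups overlapped. Pde10a read 1043, 958, 977, 950 and 1079 in controls and 850, 912, 1006, 957 and 1330 in exposed rats, overlapping, with a difference under 0.01 (adjusted p = 0.994). Exposed replicates 1 and 2, which stood apart over all features, held the lowest exposed values of Ppp1r1b, Penk and Pdyn. With them alone the 5 differences were -1.85 for Pdyn, -1.48 for Drd2, -1.48 for Ppp1r1b, -0.99 for Rgs9 and -0.97 for Penk, and with replicates 3 to 5 alone they were -1.36, -1.07, -0.94, -0.97 and -0.56, each called. The random control probe read 50.2 to 51.3 in controls and 44.3 to 47.5 in exposed rats, and with it as a covariate the same 5 genes were called lower, at -1.60 to -1.05. The probe separates the control from the exposed arrays here too, so that its part and that of exposure cannot be told apart. These 5 genes were also among the 6 that rose in controls from P21 to P75, a step that shares the control P75 arrays with this comparison. Rgs9 read 1057 to 1350 at exposed P75 and 1049 to 1392 at control P21. Ppp1r1b, at 2175 to 3346 and 2992 to 3197, and Penk, at 15645 to 23069 and 18568 to 23412, overlapped as well. Pdyn, at 380 to 690 and 1030 to 1115, and Drd2, at 425 to 760 and 830 to 1082, lay below the control P21 arrays.

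**Figure D3:**
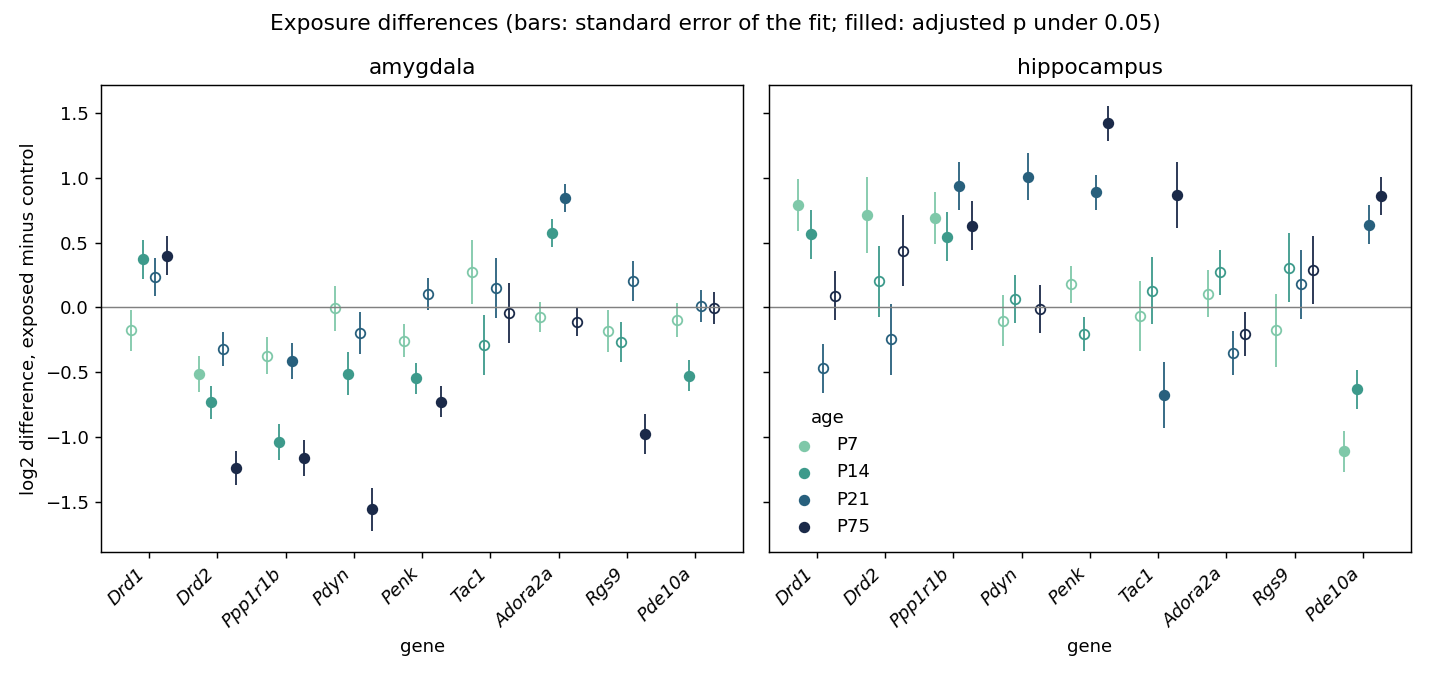
Log2 difference of exposed minus control (vertical axis) for each gene (horizontal axis) in amygdala on the left and hippocampus on the right, coloured by age; points are fitted differences, bars their standard errors, and filled points have an adjusted p under 0.05. In the amygdala Pdyn at P75 lies lowest, at -1.55, and in the hippocampus Penk at P75 lies highest, at 1.42, with Pde10a below 0 at P7 and P14 and above it at P21 and P75.

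At P14 the amygdala of exposed rats had 5 of the 9 genes lower (19.3% of features were) and 2 higher (16.5%). Ppp1r1b read 2442, 2774, 2190, 2608 and 2317 in controls and 1101, 1075, 1200, 1271 and 1375 in exposed pups, without overlap, a difference of -1.03 (SE 0.14, adjusted p = 4.05e-07). Drd2 read 1218, 1354, 1152, 990 and 1256 in controls and 732, 623, 714, 817 and 706 in exposed rats, a difference of -0.73 (SE 0.13, adjusted p = 3.55e-05), and Penk 17208, 19424, 19472, 19978 and 20391 in controls and 11817, 13544, 14335, 13170 and 13260 in exposed rats, a difference of -0.55 (SE 0.12, adjusted p = 0.000615). In both, the exposed arrays lay wholly below the controls. Pdyn was lower, at -0.51 (SE 0.16, adjusted p = 0.0141) and Pde10a at -0.52 (SE 0.12, adjusted p = 0.000963). Adora2a was higher, 1780, 1664, 1437, 1772 and 1802 in exposed against 1156, 1105, 1128, 1198 and 1085 in control pups, without overlap, a difference of 0.57 (SE 0.11, adjusted p = 0.000101). The genes of the indirect pathway thus went opposite ways at this age. Drd1 was higher by 0.37 (SE 0.15, adjusted p = 0.0481), a call lost without any of 8 of the 10 arrays. In control replicate 5 Rgs9 read 691, against 1387 to 1576 in the other controls, and Pde10a 742, against 1155 to 1312. Without that array the Rgs9 difference went from -0.27 (SE 0.15, adjusted p = 0.176) to -0.49 (adjusted p = 0.00129).

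At P21 1 gene was higher (9.45% of features) and 1 lower (16%). Adora2a read 1017, 1026, 1124, 990 and 1072 in controls and 1887, 1876, 1973, 1693 and 1953 in exposed pups, without overlap, a difference of 0.84 (SE 0.11, adjusted p = 1.1e-06), the largest of its 4 ages. Ppp1r1b was lower, at -0.41 (SE 0.14, adjusted p = 0.0247), a call lost without exposed replicate 1 (-0.38, adjusted p = 0.0618) or 2 (-0.39, adjusted p = 0.0526). At P7 1 gene, Drd2, was lower (2.17% of features) and 0 higher (5.66%). It read 1271, 1293, 1486, 1516 and 1482 in controls and 1026, 830, 1043 and 1068 in exposed pups, without overlap, a difference of -0.51 (SE 0.14, adjusted p = 0.0195). Exposed replicate 2 was the lowest, and without it the difference was -0.43 (adjusted p = 0.0751). With control replicates 1 to 3 alone it was -0.45 (adjusted p = 0.0952), and the genes called were then Ppp1r1b, at -0.62 (adjusted p = 0.0155), and Penk, at -0.48 (adjusted p = 0.0278). With control replicates 4 and 5 alone Drd2 was called, at -0.60 (adjusted p = 0.0422). Ppp1r1b then came to -0.0003 and Penk to 0.08 (adjusted p = 0.789), neither called. At P21 Drd2 read 1033, 1082, 1079, 868 and 830 against 855, 672, 853, 846 and 698, with -0.32 (SE 0.13, adjusted p = 0.0684). The summed choroid plexus intensity was 2524 to 2997 in control and 6805 to 8068 in exposed amygdala at P21. At P7 it was 2600 to 3884 and 4848 to 5371, and at P14 the arms overlapped, at 4750 to 7030 and 2506 to 5337. The thalamic sum was 8812 to 10493 and 12760 to 13142 at P7. It was 11165 to 12370 and 9316 to 10741 at P14, and 5923 to 6965 and 4525 to 5334 at P21. The part of such tissue at these ages was not tested.

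Other genes of the same cells moved in part with the 9. Among the 20 other projection neuron genes measured, 7 were lower (11.8% of all features were) and 1 higher (9.35%) in exposed amygdala at P75. Six3 read 1015 to 1579 in controls and 502 to 645 in exposed rats, -1.18 (SE 0.12, adjusted p = 4.76e-09). Dlx5, a transcription factor gene of GABA neurons, read 847 to 1086 in controls and 383 to 602 in exposed rats, at -1.002 (SE 0.14, adjusted p = 2.05e-06), and Gng7 2449 to 2883 in controls and 1385 to 2251 in exposed rats, -0.68 (SE 0.10, adjusted p = 7.39e-06). In these 3 the exposed arrays lay below the control arrays. Kcnip2, which codes for a potassium channel partner, was higher by 1.11 (SE 0.13, adjusted p = 1.35e-07). The median of the 20 was -0.23. At P14 7 were lower (19.3% of all features were) and 3 higher (16.5%). Six3 was at -1.11, Dlx5 at -0.95 and Gng7 at -0.60, and Gpr6 at 0.81, Kcnip2 at 0.43 and Sh3rf2 at 0.67.

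Genes of the central and medial amygdala were lower too. At P75 6 of 10 were lower (11.8% of all features were) and 0 higher (9.35%). Sst read 7498 to 8516 in controls and 3760 to 4500 in exposed rats, -0.97 (SE 0.10, adjusted p = 4.72e-09), and Cartpt 799 to 1102 in controls and 298 to 409 in exposed rats, -1.42 (SE 0.19, adjusted p = 5.06e-07), both without overlap, and Esr1, an oestrogen receptor gene, was lower, at -0.93 (SE 0.21, adjusted p = 0.00113). The summed intensity of the 10 was 13998 to 15095 in controls and 8196 to 9152 in exposed rats, and that of the 9 striatal genes 43076 to 52011 and 22954 to 32859. Each sum rests largely on 1 bright gene. For the 10 it is Sst, and for the 9 it is Penk, at 29480 to 35810 and 15645 to 23069. At P14 5 of the 10 were lower and 1, Crh, higher by 1.63, and at P21 6 were lower and 0 higher, an age at which 1 of the 9 striatal genes was lower. Of all features 19.3% were lower and 16.5% higher at P14, and 16% lower and 9.45% higher at P21. The part of a shift in the dissected tissue was not tested.

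The lists of GABA neurons, neurons in general and glia are to be read beside the shares of all features in the same comparison, 9.35% higher and 11.8% lower. Of 4 genes of GABA synthesis and transport 2 were higher and 0 lower, with Gad1, which codes for a GABA-synthesising enzyme, at 0.59 (SE 0.12, adjusted p = 0.00047). Of 5 general neuronal genes 2 were higher and 2 lower, with Eno2 at 1.23 and Snap25 at -0.43. Astrocyte genes were higher, 5 of 6, among them Slc1a3 by 0.75 (SE 0.11, adjusted p = 6.06e-06), and their sum was 41919 to 44109 in controls and 53868 to 74462 in exposed rats. Of 6 oligodendrocyte genes 0 passed (summed intensity 56081 to 62919 in controls and 62333 to 73042 in exposed rats), and of 4 microglial genes 1 was higher (2333 to 2736 and 2723 to 3426). Of 4 thalamic genes 1 was higher and 2 lower, of 5 claustrum genes 2 and 2, of 8 hypothalamic genes 0 and 1, of 10 choroid plexus genes 0 and 0, of 2 basolateral genes 1 and 0, of 2 pallidal genes 0 and 1 and of 3 cholinergic genes 0 and 1. Among receptors of the peptides, the mu opioid receptor gene Oprm1, through which enkephalin acts, was lower, at -0.73 (SE 0.15, adjusted p = 0.000568), and the other 5 did not pass. In the cascade downstream of dopamine and cAMP 3 of 13 were higher and 2 lower, with Ppp3ca, a calcineurin subunit gene, at 0.65 and Cdk5 at -0.65. Peptide processing genes split, 3 of 8 higher and 3 lower, with the convertase gene Pcsk2 at 0.59 and Chga at -0.48.

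**Figure D4:**
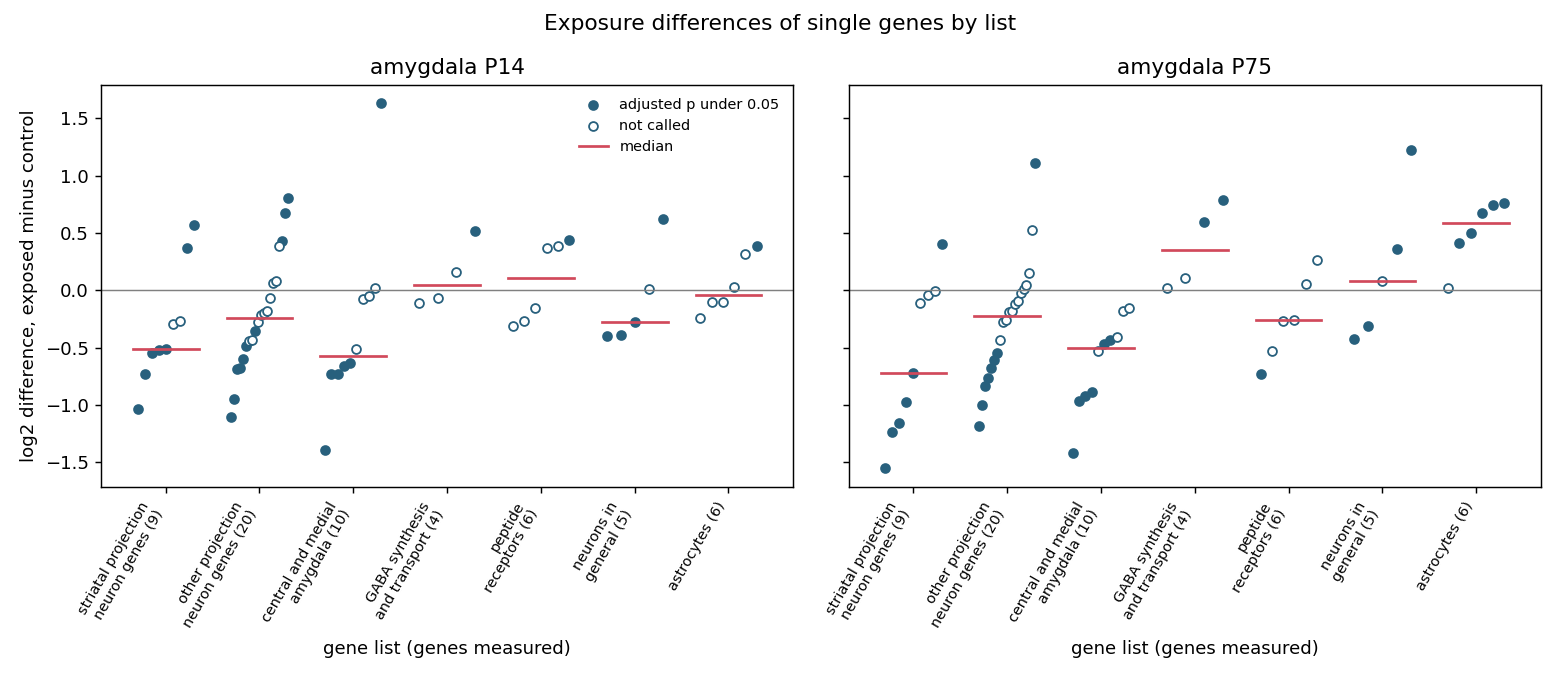
Log2 difference of exposed minus control (vertical axis) for each gene of 7 lists (horizontal axis, genes in order of their difference within a list) in amygdala at P14 and P75; filled points have an adjusted p under 0.05 and red lines are list medians. At P75 the medians of the striatal, other projection neuron and central amygdala lists lie below 0, at -0.72, -0.23 and -0.50, and that of astrocytes above it, at 0.59.

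In the hippocampus more of the 9 genes were higher than lower in exposed rats at each age, and the genes called differed between ages. At P7 3 of 9 were higher (25.1% of all features) and 1 lower (28.3%), at P14 2 higher (16%) and 1 lower (22.2%), at P21 4 higher (15.8%) and 1 lower (10.6%), and at P75 4 higher (23.7%) and 0 lower (18.6%). The shares called among the 9 genes were of the same order as those among all features.

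Penk had the largest difference. At P75 it read 3507, 3295, 2851, 2845 and 2774 in controls and 8239, 7847, 8666, 8630 and 7302 in exposed rats, with no overlap, a 2.67-fold difference and 1.42 (SE 0.13, adjusted p = 3.1e-10) on the log2 scale. At P21 it read 1062, 1237, 995, 1299 and 1064 in controls and 1966, 2190, 2402, 2105 and 1796 in exposed pups, again without overlap, 0.89 (SE 0.13, adjusted p = 1.13e-05). Pdyn differed at P21, 600, 567, 592, 606 and 625 in controls against 1173, 1146, 1195, 1053 and 1486 in exposed pups, with no overlap, 1.01 (SE 0.18, adjusted p = 0.00013). By P75 its groups overlapped, -0.01 (SE 0.18, adjusted p = 0.971): control rats had by then risen to 1029 to 1554 and exposed rats read 998 to 1508. Tac1 was lower at P21, -0.67 (SE 0.26, adjusted p = 0.0481), a call lost without any of 6 of the 10 arrays, and higher at P75, 150, 86, 130, 111 and 154 against 330, 184, 215, 260 and 171, 0.87 (SE 0.26, adjusted p = 0.00612). At P75 its groups did not overlap.

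Ppp1r1b was higher in exposed hippocampus at every age. It read 1496, 1694, 1794, 1427 and 1860 in controls and 2636, 2473, 2332, 2570 and 2740 in exposed rats at P75, without overlap, 0.63 (SE 0.19, adjusted p = 0.00636), and was higher by 0.93 (SE 0.19, adjusted p = 0.000381) at P21, 0.55 (SE 0.19, adjusted p = 0.0192) at P14 and 0.69 (SE 0.20, adjusted p = 0.00366) at P7. The P7 call rested on exposed replicates 3 and 4, which read 1159 and 932 where replicates 1 and 2 read 447 and 429. With replicates 1 and 2 alone the difference was 0.06, and without replicate 3 it was 0.43 (adjusted p = 0.0566). The P14 call was lost without control replicate 2 (0.45, adjusted p = 0.0637), and the P75 call after quantile normalization (0.36, adjusted p = 0.135).

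Pde10a turned with age. At P7 it read 876, 840, 889, 629 and 830 in controls and 400, 320, 348 and 440 in exposed pups, without overlap, -1.11 (SE 0.16, adjusted p = 2.59e-07). At P14 it was lower, at -0.63 (SE 0.15, adjusted p = 0.000972). At P21 it read 276, 282, 322, 567 and 301 in controls and 494, 451, 556, 546 and 573 in exposed pups, overlapping at control replicate 4, 0.64 (SE 0.15, adjusted p = 0.00182), and at P75 it was higher by 0.86 (SE 0.15, adjusted p = 1.76e-05), without overlap. Control Pde10a dropped between P14 and P21, as described for the control ages above, and exposed Pde10a stayed within 320 to 836 at all ages. The receptor genes moved at the young ages: Drd1 was higher by 0.79 (SE 0.20, adjusted p = 0.00118) at P7 and 0.56 (SE 0.19, adjusted p = 0.0175) at P14, and Drd2 by 0.71 (SE 0.29, adjusted p = 0.0369) at P7, a call lost without any of 5 of the 9 arrays. With exposed replicates 1 and 2 alone the P7 difference of Drd1 was 1.15, with 3 and 4 alone 0.43 (adjusted p = 0.132), and, fitted together with the random control probe, 0.28 (adjusted p = 0.865). For Drd2 these were 0.86 (adjusted p = 0.0521), 0.57 (adjusted p = 0.21) and -0.46 (adjusted p = 0.841). Pde10a was called with either pair, at -1.17 and -1.04, and came to -1.37 (adjusted p = 0.113) with the probe. The Drd1 call at P14 was lost without control replicate 5 (0.44, adjusted p = 0.0784). Adora2a and Rgs9 passed at none of the 4 ages in the hippocampus, with differences of -0.35 to 0.31.

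Hippocampal differences changed when the random control probe, whose levels are given with the array facts, was fitted as a covariate. With the probe as a covariate 0 of 9 genes were called at P21 and 0 at P75, Penk at P75 came to 0.25 (adjusted p = 0.741), and Ppp1r1b reversed to -0.36 and -0.59. In the hippocampus the probe separates the control from the exposed groups at all 4 ages. Its part and that of exposure can therefore not be told apart. Other lists were higher as well at P75: 7 of 8 peptide processing genes, 12 of 13 genes of the dopamine and cAMP cascade, 4 of 4 of GABA synthesis and transport and 5 of 5 of neurons in general were higher (23.7% of all features were). At P7 6, 11, 4 and 3 genes of the same lists were lower (28.3% of all features were) and 0, 0, 0 and 2 higher (25.1%). At that age 6 of 6 astrocyte genes were lower, with a sum of 44568 to 51088 in controls and 14046 to 14985 in exposed pups, and 7 of 10 choroid plexus genes higher and 0 lower, with a sum of 2558 to 2898 and 8062 to 9555. Their part in the differences of the 9 genes was not tested.

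The exposure difference was compared between the regions in a fit of all 78 arrays. At P75 7 of 9 genes had a lower exposure difference in the amygdala than in the hippocampus (22.3% of all features did) and 0 a higher one (14.6%). Penk differed most, -2.14 (SE 0.17, adjusted p = 7.38e-16), followed by Ppp1r1b at -1.79 (SE 0.23, adjusted p = 4.53e-09), Drd2 at -1.67 (SE 0.31, adjusted p = 1.24e-05) and Pdyn at -1.54 (SE 0.25, adjusted p = 7.43e-07). Tac1, at -0.91 (SE 0.35, adjusted p = 0.0347), lost its call without any of 8 of the 20 arrays. At P21 2 were higher (14.4%) and 4 lower (23.2%), with Adora2a at 1.19 (SE 0.20, adjusted p = 2.1e-06) and Ppp1r1b at -1.35 (SE 0.23, adjusted p = 3.62e-06). At P14 0 were higher (16.1%) and 2 lower (12%), Ppp1r1b at -1.58 (SE 0.23, adjusted p = 9.21e-08) and Drd2 at -0.93 (SE 0.31, adjusted p = 0.0163). At P7 1 was higher (29.4%) and 4 lower (20%), with Pde10a at 1.01 (SE 0.20, adjusted p = 2.01e-05) and Drd2 at -1.22 (SE 0.33, adjusted p = 0.0013). The exposure difference of Ppp1r1b was lower in the amygdala at all 4 ages. These values hold the hippocampal differences, so the levels of the random control probe in those groups touch them too, and its part was not tested.

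The same arrays give the regional gap within exposed rats. At P7 8 of 9 genes were higher in amygdala (37.1% of features) and 0 lower (24.1%), at P14 7 (27.9%) and 0 (18%), at P21 7 (26.3%) and 0 (17.8%), and at P75 4 (21.4%) and 1 (10.4%). Pdyn was the gene lower in exposed adult amygdala, at 523, 380, 690, 652 and 546 against 998, 1341, 1086, 1497 and 1508 in exposed hippocampus, without overlap, -1.21 (SE 0.17, adjusted p = 4.86e-08). Ppp1r1b, higher in control amygdala by 1.91 at P75, differed by 0.12 (SE 0.16, adjusted p = 0.61) in exposed rats, and Drd2, higher by 2.13 in controls, by 0.46 (SE 0.22, adjusted p = 0.0974). Penk kept a gap of 1.23 (SE 0.12, adjusted p = 9.33e-13), Rgs9 of 1.65 (SE 0.22, adjusted p = 7.56e-09) and Adora2a of 1.09 (SE 0.14, adjusted p = 3.23e-09). Among the P7 calls, Ppp1r1b at 0.48 (SE 0.18, adjusted p = 0.0188) and Adora2a at 0.39 (SE 0.16, adjusted p = 0.0275) each failed without several single arrays, and after quantile normalization of all arrays they came to 0.08 and -0.03.

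Whether the exposure difference changed over the 4 ages was tested with an F test in each region. In the amygdala 7 of 9 genes were called (32.7% of all features), all but Drd1 (adjusted p = 0.104) and Tac1 (adjusted p = 0.481). In the hippocampus 5 were called (63.5%), among them Pde10a (adjusted p = 2.22e-10) and Penk (adjusted p = 7.04e-09). For Ppp1r1b in the hippocampus, higher at each age, the test gave an adjusted p of 0.556.

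Arrays of a group were then compared among themselves, with each gene's group mean removed. This asks whether the 9 genes were high and low together on single arrays. Over the 39 amygdala arrays the 36 pairs of the 9 genes had a median Pearson's r of 0.12 and a range of -0.12 to 0.63, with 28 pairs above 0, and over the 39 hippocampus arrays a median of 0.05 and a range of -0.51 to 0.42. In a permutation test that shuffled arrays within groups 100000 times, 0 of 72 pairs passed after Benjamini-Hochberg adjustment. The highest was Ppp1r1b with Penk in the amygdala, with Pearson's r of 0.63 (permutation p = 0.00885, adjusted p = 0.244) and Spearman's rho of 0.52. Drd1 and Penk followed at 0.59. Rgs9 with Pde10a reached 0.58, but 0.81 in control and -0.01 in exposed arrays, and control replicate 5 at P14 was low in both. Without the pair of arrays farthest from the median of the first gene, the median r over the amygdala pairs was 0.0060. Each gene was then set beside all 9626 other named genes by its r over the 39 amygdala arrays. Another of the 9 was among the 50 most alike for 2 genes: Penk ranked 11 for Drd1 and Ppp1r1b ranked 38 for Penk. The 3 genes most like Pdyn were Pex5l, Selenoo and Itm2a (r of 0.73, 0.71 and 0.70), those most like Ppp1r1b were Rock2, Htr2c and Sv2b (0.77, 0.75 and 0.75), those most like Drd2 were Map1lc3a, Csnk1g1 and Scn2a (0.65, 0.64 and 0.63), and those most like Rgs9 were Bscl2, Phyhd1 and Fam131b (0.77, 0.74 and 0.74). These values of r are descriptions over arrays that share their region and their normalization.

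**Figure D5:**
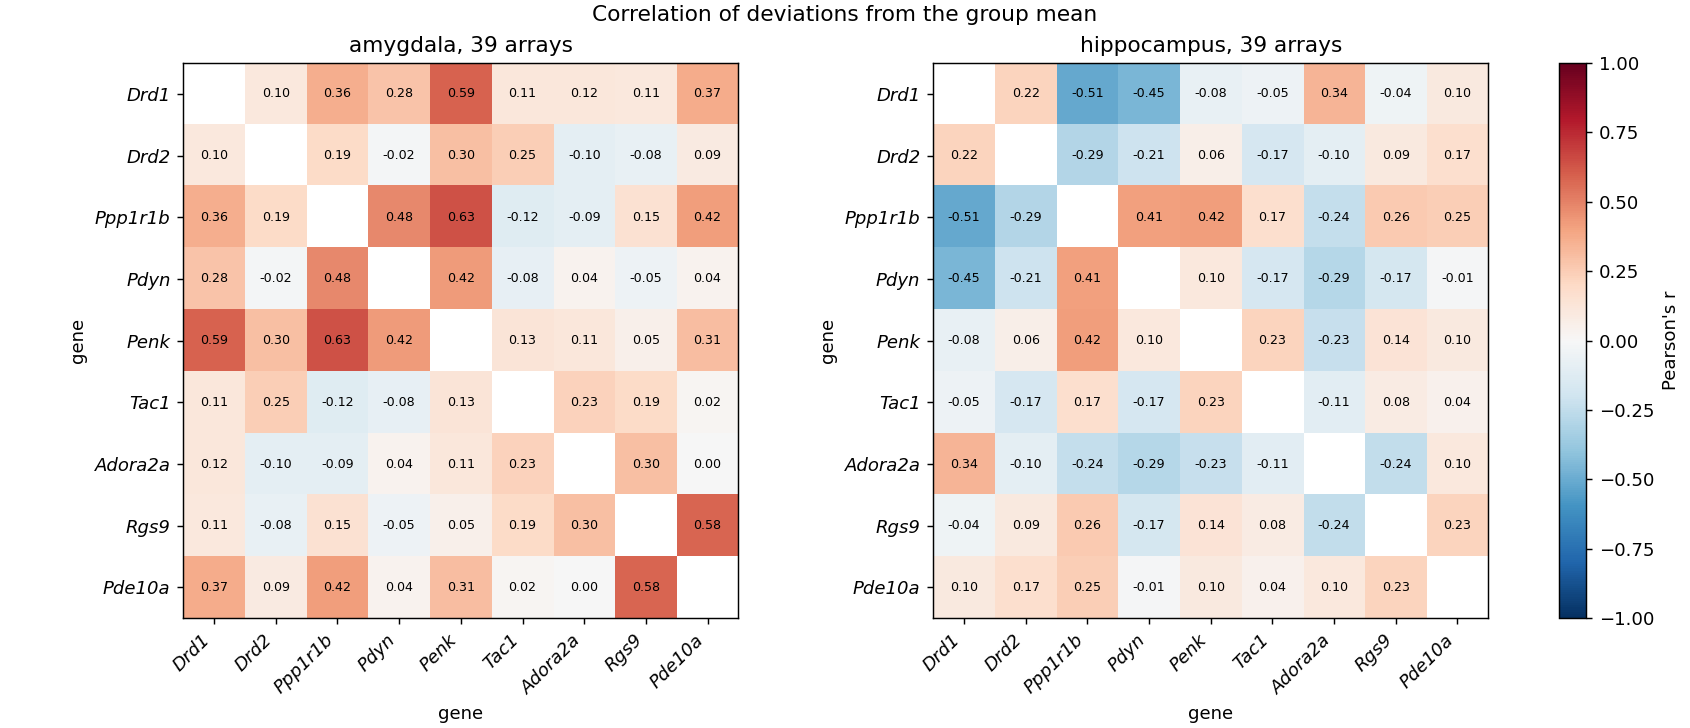
Pearson's r between each pair of the 9 genes (both axes) after each group's mean was removed, over 39 arrays of the amygdala on the left and 39 of the hippocampus on the right; red is positive and blue negative. In the amygdala Penk with Ppp1r1b (0.63) and with Drd1 (0.59) and Rgs9 with Pde10a (0.58) are darkest, and most other cells are pale.

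The authors' deposited tables of differing features, 1 for each region and age and made with their own test and filter, hold 4 of the 9 genes. In the authors' deposited table Ppp1r1b was 2.05-fold lower in exposed amygdala at P14 with a corrected p-value of 0.0183, and Adora2a 1.79-fold higher at P21 with 0.00114. For the hippocampus the authors' deposited table gives Pdyn as 2.01-fold higher at P21 with 0.0169, and Penk as 2.67-fold higher at P75 with 0.000859. The authors' deposited table for amygdala P75 lists 80 features, and none of the 9 genes is among them.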

How the data were processed

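RNA from 78 tissue pieces was hybridised singly to single-colour rat expression arrays. The deposited intensity values were normalized by the authors and are linear, and log2 was taken. The labels state neither method nor centring for these values. The authors deposited 8 tables of differing features with p-values and absolute fold changes, made per the file headers with an unpaired test, Bonferroni correction and a fold of at least 1.5. A further 312 per-array columns of these tables, whose names hold the letters RMA, were not used. Whether the values used here were made in the same way was not tested. Features were named through the RefSeq table, which gave 9747 of 26419 features a gene.

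Differences were fitted with limma 3.58.1 in R 4.3.3 and adjusted by Benjamini-Hochberg at 0.05 over 26419 features with no filter on dim features: exposure, age steps and F tests within each region, and region differences over all 78 arrays. The number of arrays limits the precision. Exposure and age comparisons share control arrays. All 9 genes could be named in any comparison; from other lists up to 3 called genes per direction with the smallest p, of which some are not reported here, and for likeness the 3 genes of highest r. The 9 genes and all lists were chosen with earlier results of these data known. Scripts were tested on simulated data. Alternatives were quantile normalization, array weights, the random control probe as covariate, replicate blocks, fits of only the groups compared, the methods' test, single arrays left out and, chosen after seeing the data, arrays that stood apart. No genome was used.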

Additional observations from a re-analysis of the deposited data

Results flagged for a closer look

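Of 144 sets of arrays, 1 for each gene and group, 11 held an array whose gap to its nearest neighbour was large for the range of its group; chance gives about 1 such set in 20. Drd1 read 259 in control amygdala P75 replicate 4, the lowest of its group, and 196 in control hippocampus P7 replicate 3, the highest. Drd2 read 830 in exposed amygdala P7 replicate 2, the lowest. Pdyn read 119 in exposed hippocampus P7 replicate 1, the lowest. Penk read 17208 in control amygdala P14 replicate 1 and 20124 in exposed amygdala P21 replicate 5, the lowest of their groups. Adora2a read 603 in control hippocampus P21 replicate 2, the lowest. Rgs9 read 691 and Pde10a 742 in the same array, control amygdala P14 replicate 5, the lowest in both. Pde10a read 629 in control hippocampus P7 replicate 4, the lowest, and 567 in control hippocampus P21 replicate 4, the highest.

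The exposure difference of the amygdala minus that of the hippocampus passed the test for 20 pairs of gene and age. At P7 it was -0.97 for Drd1, -1.22 for Drd2, -1.06 for Ppp1r1b, -0.43 for Penk and 1.01 for Pde10a. The Penk value failed without any of 10 of the 18 arrays. At P14 it was -0.93 for Drd2 and -1.58 for Ppp1r1b. At P21 it was 0.70 for Drd1, -1.35 for Ppp1r1b, -1.21 for Pdyn, -0.78 for Penk, 1.19 for Adora2a and -0.62 for Pde10a. At P75 it was -1.67 for Drd2, -1.79 for Ppp1r1b, -1.54 for Pdyn, -2.14 for Penk, -0.91 for Tac1, -1.27 for Rgs9 and -0.86 for Pde10a.

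The exposure difference changed over the 4 ages by limma's F test for 12 pairs of gene and region. The adjusted p in the hippocampus was 0.000643 for Drd1, 0.000971 for Pdyn, 7.04e-09 for Penk, 0.0037 for Tac1 and 2.22e-10 for Pde10a. In the amygdala it was 0.00149 for Drd2, 0.00206 for Ppp1r1b, 3.57e-05 for Pdyn, 0.00183 for Penk, 2.59e-05 for Adora2a, 0.000863 for Rgs9 and 0.0382 for Pde10a.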

How the results depend on the processing

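Of 2646 values with 1 array left out, 2522 kept direction and side of the threshold, 93 fell below it, 31 passed it and 0 reversed; of 1360 under other settings these were 1239, 87, 28 and 6. The causes were not tested unless stated. With the random control probe as covariate, exposed minus control gave 2 called genes against 4 in hippocampus P7 (Ppp1r1b, and Penk at 1.74, which was not among the 4), 0 against 5 in P21, 0 against 4 in P75 and 1 against 2 in amygdala P21, and reversed Drd2 in hippocampus P7 (-0.46), Ppp1r1b (-0.36) and Penk (-0.35) in P21, Ppp1r1b in P75 (-0.59) and Drd1 in amygdala P75 (-0.0382). Quantile normalization gave 2 against 1 in amygdala P7, 1 against 2 in amygdala P21, 2 against 0 for P21 minus P14 in control amygdala and 4 against 2 for the regional difference of the exposure difference at P14, and reversed Adora2a between exposed regions at P7 (-0.0254). Fits of only the groups compared, with fewer arrays, gave 2 in hippocampus P7, 0 in amygdala P7 and 1 against 3 for P14 minus P7 in control amygdala. The methods' t-test after Benjamini-Hochberg gave 2 in hippocampus P7 and 0 in amygdala P7. With Bonferroni and the fold of 1.5, a stricter rule by construction, it gave 0, 0, 0 and 1 in hippocampus and 0, 0, 1 and 0 in amygdala from P7 to P75. Exposed replicates 1 and 2 alone gave 2 in hippocampus P7 (Drd1 and Pde10a), and control replicates 1 to 3 alone gave 2 in amygdala P7 (Ppp1r1b and Penk), without Drd2, the 1 called there with all arrays. Control replicates 4 and 5 alone gave 1 in amygdala P7, Drd2. Median r in the hippocampus reversed to -0.005 without the 2 farthest arrays and -0.0084 in controls alone.

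With 1 array left out, exposed minus control called 3 to 4, 2 to 4, 4 to 6 and 4 to 5 genes in hippocampus and 0 to 1, 6 to 7, 1 to 3 and 5 to 6 in amygdala from P7 to P75; amygdala minus hippocampus called 7 to 8, 8 to 9, 6 to 6 and 6 to 7 in controls and 7 to 7, 7 to 7, 7 to 7 and 5 to 6 in exposed rats. Age steps called 3 to 4, 4 to 6 and 2 to 3 in hippocampus and 3 to 5, 0 to 2 and 4 to 6 in amygdala. Replicate numbers were taken to name arrays only, as same-numbered arrays did not all deviate together. That check cannot show that same-numbered arrays of amygdala and hippocampus came from different rats. The region comparisons treated them as independent. A replicate block gave 3, 3, 4 and 4 called genes in hippocampus and 1, 7, 2 and 5 in amygdala, losing Drd2 in hippocampus P7 (adjusted p = 0.0617), Tac1 in hippocampus P21 (0.056) and Drd1 in amygdala P75 (0.0519). Each gene had 1 feature, so the alternative of all features of a gene gave no value. Dim Tac1 and hippocampal Rgs9, Drd1 and Drd2 are the least well measured.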
